A study of Mus musculus with 12 samples.

Results

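Complement genes of healing skin were followed in 12 wounds from the backs of diabetic male mice (db/db), which carry a mutation of the leptin receptor and serve as a model of obesity with type 2 diabetes. The 31 genes were taken from a named list of complement components, receptors and regulators and matched to the deposited gene identifiers by symbol. All 31 were found among 54232 listed genes, and 30 held at least 15 counts over the 12 libraries. Fcnb, encoding a ficolin of neutrophils, had 7 counts in all and was dropped. Masp2 kept 74 counts but did not pass the filter on low counts, so 29 members were among the 18618 genes tested.

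Every mouse was of genotype Lepr (db/db) on C57BLKS/J, aged 12.5 weeks by the sample labels, and every wound was a full-thickness punch of 6 mm taken on day 10. The control wounds, labelled TD, were covered by a Tegaderm film dressing alone and gave 5 libraries. Wounds in the strain group (4 libraries) were given a patch that strains the wound by roughly 30%, and those in the no-strain group (3 libraries) a patch without strain. All groups share the db/db mutation and the wound, so no library shows a lean or an unwounded state. The labels do not say whether wounds came from separate mice, so p-values measure only the spread between these libraries.

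Complement is a set of plasma and cell-surface proteins that tags microbes and damaged cells for removal. It can be started by C1q bound to antibody or debris, by lectins and ficolins bound to sugars, or by spontaneous activation of C3, and all 3 routes meet at cleavage of C3. Fragments of C3 and C5 call in leukocytes through their receptors, the terminal components assemble a pore in membranes, and host cells are shielded by surface and soluble regulators. The liver makes most circulating complement, but macrophages, fibroblasts and adipocytes of skin make their own share.

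Values are CPM (counts of a gene as a share of its library's total, on the usual CPM scale) after scaling by trimmed mean of M-values (TMM). Totals ran from 20354677 to 25059371 counts per library, so 3 counts, the floor used for absence, correspond to 0.120 to 0.147 CPM, which covers counting error only. Complement members took 0.315% to 0.660% of all counts. Summed over 10 genes each, keratinocyte markers ran from 7419 to 20008 CPM and fibroblast markers from 43915 to 76710 CPM, so both defining tissues of skin were present in every library. Skeletal muscle markers, also 10 genes, ran from 6399 to 15087 CPM in TD, from 2839 to 5425 CPM under strain and from 4014 to 8930 CPM without strain. Sums of 8 hepatocyte markers, which skin should lack, were 1.59 and 1.37 CPM in TD replicates 3 and 4, 60.3 to 72.0 CPM in the other TD libraries, 63.3 to 166 CPM under strain and 257 to 296 CPM without strain. In bulk tissue, fewer cells of a type and less RNA per cell cannot be told apart.

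The most abundant recognition molecule was C1q, whose 3 chains are encoded side by side on chromosome 4 (GRCm38) by C1qa, C1qc and C1qb. Fcna and Vsig4, both genes of macrophages, were lower without strain than in TD, while C1qb and C1qc did not pass in any comparison. Upstream sequences of these 4 genes are given here side by side. Each is the 250 bases before the RefSeq start (GRCm38.p6), 5′ to 3′ on the coding strand, for C1qb at chr4:136886201-136886450, C1qc at chr4:136892915-136893164, Fcna at chr2:25627975-25628224 and Vsig4 at chrX:96293439-96293688, all on the minus strand. Capitals mark GAGGAA, the core bound by the myeloid factor PU.1, or TGCTGAC, part of the site of MAF factors, on either strand.
C1qb: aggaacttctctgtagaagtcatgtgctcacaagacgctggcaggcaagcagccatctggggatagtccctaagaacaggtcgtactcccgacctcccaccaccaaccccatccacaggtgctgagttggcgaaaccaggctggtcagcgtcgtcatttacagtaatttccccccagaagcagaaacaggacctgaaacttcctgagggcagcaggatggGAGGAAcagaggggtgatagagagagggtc
C1qc: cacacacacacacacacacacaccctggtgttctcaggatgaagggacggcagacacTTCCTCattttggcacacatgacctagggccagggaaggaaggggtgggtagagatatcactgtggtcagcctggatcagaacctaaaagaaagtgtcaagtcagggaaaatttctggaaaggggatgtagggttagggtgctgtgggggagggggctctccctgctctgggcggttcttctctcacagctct
Fcna: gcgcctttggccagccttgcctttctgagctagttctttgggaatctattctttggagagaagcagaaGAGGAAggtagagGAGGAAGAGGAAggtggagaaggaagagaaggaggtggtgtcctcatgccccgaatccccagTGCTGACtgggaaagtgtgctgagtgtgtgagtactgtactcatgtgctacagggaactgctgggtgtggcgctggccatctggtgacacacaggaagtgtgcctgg
Vsig4: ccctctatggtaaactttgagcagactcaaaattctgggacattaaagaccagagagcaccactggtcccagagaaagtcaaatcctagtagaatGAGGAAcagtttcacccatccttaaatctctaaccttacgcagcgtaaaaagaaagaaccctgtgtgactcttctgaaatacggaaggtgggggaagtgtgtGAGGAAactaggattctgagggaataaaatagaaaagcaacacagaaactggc
Of 32851 promoter windows of this length, 23.3% held GAGGAA and 3.81% held TGCTGAC. Of the 24 windows that belong to 22 members, 25.0% held GAGGAA (6 windows: those above and 1 each for C5ar2 and Cd59a) and 12.5% held TGCTGAC (Fcna, C1rl and Cd55). TATAAA, also searched on both strands, was in 12.4% of all windows and in none of the 4 shown. These matches describe letters only and are not shown to be bound here.

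Counted over the list, 2 of 29 members were lower under strain than in TD and 0 were higher, a share of 6.90% against 12.6% of all genes tested (6.2% higher, 6.41% lower). Both were regulators or subunits of the membrane pore, C7 and Cd59a. Without strain, 5 were lower than in TD (C7, Cd59a, Cfd, Fcna and Vsig4) and 3 higher (Cfi, Cd93 and C1qbp), a share of 27.6% against 17.8% of all genes (9.35% higher, 8.4% lower). The same 8 members passed, in the same directions, when the patch groups were averaged and set against TD, where 24.4% of all genes passed (12.4% higher, 12.1% lower). Libraries did not overlap for 3 members under strain (10.3%, against 14.6% of all genes) and for 9 without strain (31.0%, against 26.7%). The median log2 fold change of the members was 0.17 for strain and 0.20 for no strain, against 0.02 and 0.00 over all genes. These comparisons share the TD libraries. With the skeletal muscle markers as a covariate, 0 members passed for strain, 1 (C7, log2 fold change -1.89, edgeR adjusted p = 0.0276) for no strain and 0 for both patches, and calls over all genes fell to 1, 491 and 14. With the hepatocyte markers as a covariate, 1, 0 and 2 members passed, and calls over all genes fell to 302, 211 and 665. No member kept every call under both covariates.

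**Figure D1:**
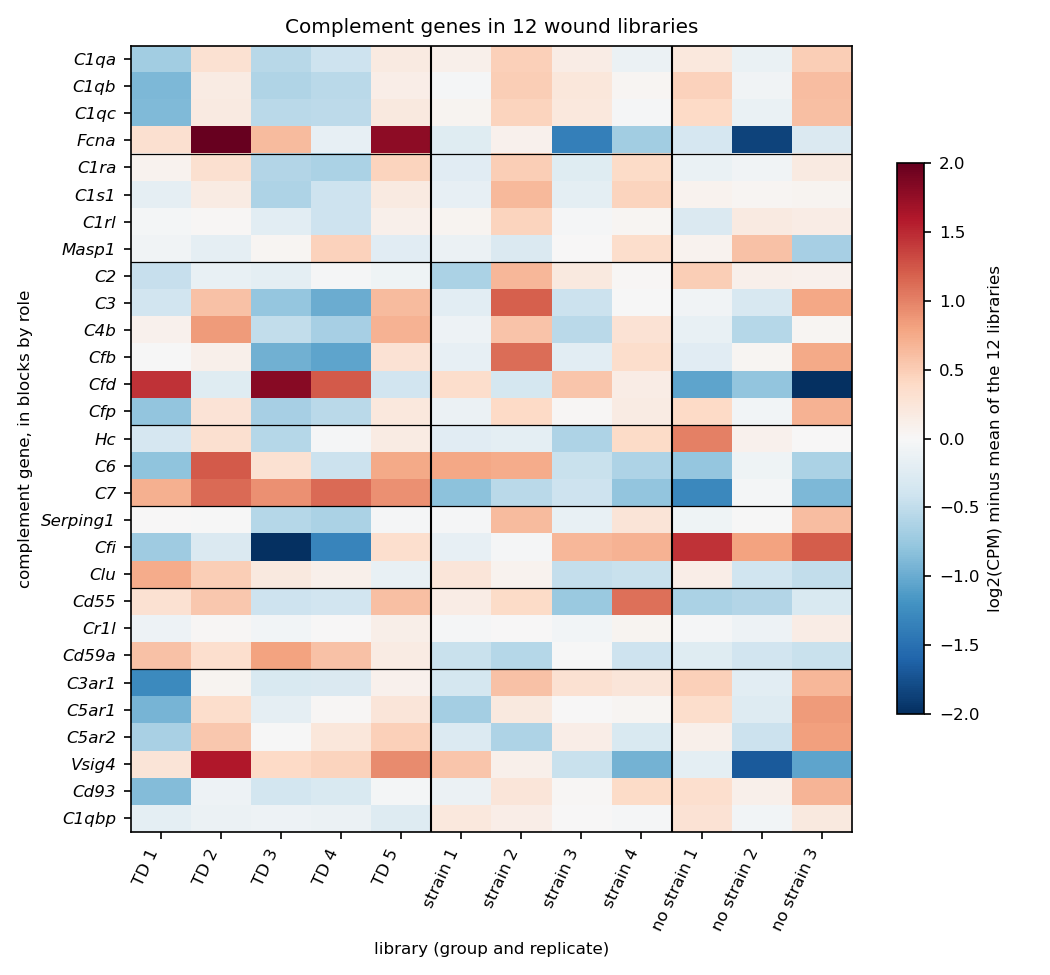
Heat map of the 29 tested complement genes (rows, in blocks by role) in 12 libraries (columns, by group and replicate), coloured by log2 CPM minus the mean of the 12 libraries, with the colour scale ending at 2 in either direction. Fcna and Vsig4 are highest in TD replicate 2, and C7 and Cd59a are higher in every TD library than in any patch library.

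The 3 C1q chains rose and fell together from library to library. C1qb had 192, 401, 236, 245 and 394 CPM in TD replicates 1 to 5, 351, 500.2, 416 and 367 CPM under strain, and 494, 341 and 549 CPM without strain. TD replicates 2 and 5 lay within the range of the patch libraries, while TD replicates 1, 3 and 4 lay below it. The log2 fold change of C1qb was 0.48 (SE 0.232) for strain against TD and 0.65 (SE 0.250) for no strain against TD, with edgeR adjusted p = 0.195 and 0.0918, so neither passed the threshold of 0.05. C1qa and C1qc gave 0.35 and 0.43 for strain and 0.39 and 0.57 for no strain, none of them past the threshold. Per kilobase of exon, the ratio of C1qa to C1qb was 0.943 ± 0.0432 (SD, n = 5) in TD, 0.858 ± 0.0689 (SD, n = 4) under strain and 0.788 ± 0.0516 (SD, n = 3) without strain. No-strain and TD libraries did not overlap in this ratio (two-sided exact permutation p = 0.0357, the smallest this design allows), but over the 6 ratio tests made the adjusted value was 0.107.

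**Figure D2:**
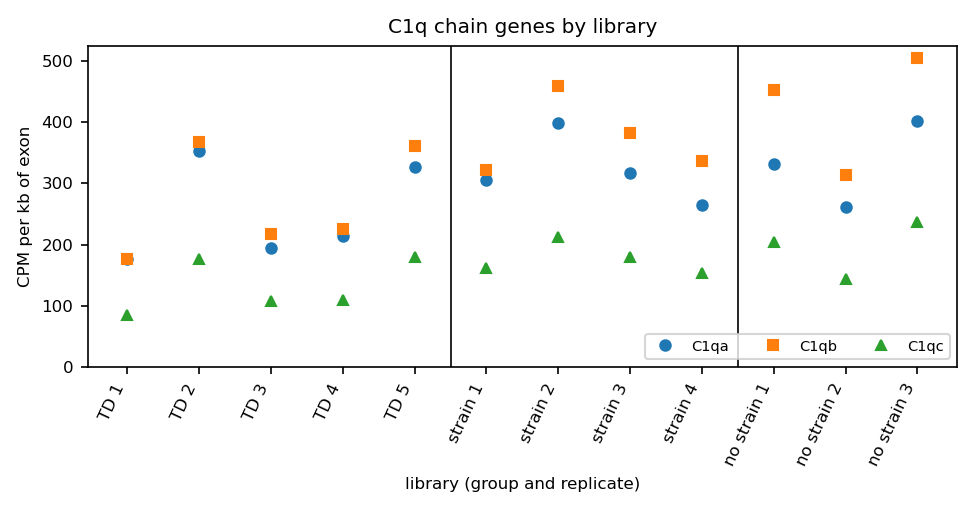
CPM per kilobase of exon for C1qa, C1qb and C1qc in each of 12 libraries, 1 point per gene and library. All 3 genes are lowest in TD replicate 1 and highest in no-strain replicate 3, and C1qa lies close to C1qb in TD replicate 1 and below it in the no-strain libraries.

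Fcna, encoding ficolin A, a sugar-binding lectin made by macrophages, was lower without strain than in TD. It had 27.0, 93.5, 33.6, 19.4 and 74.8 CPM in TD, 18.2, 22.9, 8.41 and 13.4 CPM under strain, and 17.1, 5.96 and 17.7 CPM without strain. TD replicates 2 and 5 stood well above the rest, and the no-strain libraries all lay below the lowest TD library. The log2 fold change was -1.87 (SE 0.583) for no strain against TD (edgeR adjusted p = 0.0470) and -1.66 (SE 0.517) for strain against TD (edgeR adjusted p = 0.0564), so only the former was past the threshold. In 8 of 12 fits that each left out 1 library the former call was lost, with adjusted p from 0.0361 to 0.129; these were TD replicates 2, 3 and 5, strain replicates 1 and 4, and each of the no-strain libraries. Without TD replicates 2 and 5 together it was -0.97 (edgeR adjusted p = 0.180). Over 25 alternatives the call was lost in 15. Among these were limma (voom), no filter on low counts, only the groups compared and the title letter as covariate.

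Among the proteases that start the cascade, no tested member passed against TD. C1ra and C1s1, the serine proteases carried by C1q, averaged 197 ± 65.6 and 251 ± 60.0 CPM (SD, n = 5) in TD, and their log2 fold changes ran from 0.00 to 0.37. On that scale the 95% interval was -0.08 to 0.83 for C1s1 under strain and -0.59 to 0.60 for C1ra without strain. C1rl, a related protease, averaged 9.11 ± 1.26 CPM (SD, n = 5) in TD, with fold changes of 0.23 and 0.12. Masp1, a protease of the lectin route, averaged 73.1 ± 15.0 CPM (SD, n = 5) in TD, and its 95% intervals reached from -0.52 to 0.48 for strain and from -0.49 to 0.60 for no strain on the log2 scale. Masp2 stayed between 0.0404 and 0.686 CPM. Of its 3307 exon bases, 1817 overlap those of Tardbp on the other strand, and whether the counting used strand is not given in the sources used here, so its few counts cannot be assigned to it with certainty.

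Of the central components, C3, the protein that all routes cleave, had the highest mean CPM in TD and under strain, and Serping1 had it without strain. By median, Serping1 was above C3 in each group. The medians were 679 against 523 CPM in TD, 755 against 635 CPM under strain and 685 against 654 CPM without strain. C3 had 523, 1030, 402, 342 and 1054 CPM in TD, 592, 1564, 507 and 677 CPM under strain, and 654, 545 and 1169 CPM without strain. The groups overlapped widely, with log2 fold changes of 0.32 (SE 0.435) and 0.24 (SE 0.472), and 95% intervals that left room for a change of 1.27 upward in either comparison. C4b, the C4 protein shared by the classical and lectin routes, averaged 553 ± 249 CPM (SD, n = 5) in TD, with strain 512 ± 163 CPM (SD, n = 4) and without it 413 ± 86.1 CPM (SD, n = 3), and did not pass either test. It shares sequence with C4a, so reads may be split between them. C2 and Cfb, the proteases of the C3 convertases, averaged 12.5 ± 1.35 and 5.96 ± 2.34 CPM (SD, n = 5) in TD and did not pass. In the annotation, 2246 of 2825 exon bases of Cfb and 1656 of 3872 of C2 also belong to Gm20547, which held 0 counts, so the levels of both may be understated if shared reads were discarded. Cfp, encoding properdin, which stabilises the alternative convertase, averaged 78.6 ± 28.0 CPM (SD, n = 5) in TD and did not pass, with fold changes of 0.36 and 0.61.

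Cfd, encoding factor D (adipsin), the alternative-route protease secreted by adipocytes, was the member with the widest range, 23.1-fold from the highest to the lowest library. It had 46.2, 14.4, 60.1, 39.7 and 13.0 CPM in TD, 21.6, 13.3, 25.0 and 18.8 CPM under strain, and 8.19, 9.82 and 2.60 CPM without strain. All no-strain libraries lay below all others, and strain libraries lay inside the TD range. For no strain against TD the log2 fold change was -2.33 (SE 0.581, edgeR adjusted p = 0.0206). The value for strain against TD was -0.82 (SE 0.482, edgeR adjusted p = 0.285). Summed adipocyte markers, 10 genes without Cfd, ran from 1265 to 2917 CPM in TD, from 885 to 1345 CPM under strain and from 698 to 975 CPM without strain. TD replicates 2 and 5, the lowest in Cfd, were also the lowest TD libraries in those markers, and the part of fat tissue in the change of Cfd was not tested. The call was lost without no-strain replicate 1 or without no-strain replicate 3 (edgeR adjusted p from 0.0133 to 0.0712 over the 12 fits that left out 1 library). Over 25 alternatives it was lost in 7, with adjusted p of at most 0.294. Among these were limma (voom), no filter on low counts and leaving out TD replicates 3 and 4.

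One of the 3 terminal components differed from TD under both patches. C7, a subunit of the membrane pore (chr15:4988762-5063740, GRCm38), had 15.8, 21.2, 18.3, 21.1 and 18.1 CPM in TD, 5.47, 6.62, 7.24 and 5.56 CPM under strain, and 3.96, 9.40 and 5.16 CPM without strain. Every TD library exceeded every patch library. C7 fell 3.03-fold under strain (log2 fold change -1.60, SE 0.218, edgeR adjusted p = 0.00386) and 3.06-fold without strain (-1.61, SE 0.242, edgeR adjusted p = 0.00301). Both calls held in all 12 fits that left out 1 library, with adjusted p of at most 0.0174. With the muscle covariate the strain value was -1.997 (edgeR adjusted p = 0.292), and with the hepatocyte covariate the no-strain value was -1.52 (edgeR adjusted p = 0.0589), so each ended 1 of the calls. C6, which precedes C7 in the pore, averaged 9.39 ± 5.15 CPM (SD, n = 5) in TD, with strain 8.48 ± 4.10 CPM (SD, n = 4) and without it 5.16 ± 1.34 CPM (SD, n = 3) and did not pass. Hc, encoding C5, averaged 7.97 ± 1.93 CPM (SD, n = 5) in TD, with strain 7.63 ± 2.27 CPM (SD, n = 4) and without it 11.3 ± 4.67 CPM (SD, n = 3) and did not pass either.

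The regulators on the cell surface did not move together. Cd59a, which blocks the pore on host membranes (chr2:104095801-104115354, GRCm38), had 38.8, 32.8, 45.4, 39.0 and 28.9 CPM in TD, 19.0, 17.5, 25.9 and 19.4 CPM under strain, and 22.0, 19.9 and 18.9 CPM without strain. Every TD library again exceeded every patch library. Cd59a fell 1.81-fold under strain (log2 fold change -0.85, SE 0.143, edgeR adjusted p = 0.00727) and 1.82-fold without strain (-0.87, SE 0.157, edgeR adjusted p = 0.00566), in each of the 12 fits that left out 1 library (adjusted p at most 0.0288). With the muscle covariate both calls were lost, at -0.33 for strain (edgeR adjusted p = 0.645) and -0.54 for no strain (edgeR adjusted p = 0.113). With the hepatocyte covariate they were -0.71 (edgeR adjusted p = 0.058) and -0.64 (edgeR adjusted p = 0.142). Cr1l, encoding Crry, which inactivates C3 convertases on mouse cells, averaged 76.3 ± 4.24 CPM (SD, n = 5) in TD, with strain 76.1 ± 2.26 CPM (SD, n = 4) and without it 76.7 ± 6.84 CPM (SD, n = 3). Its 12 libraries spanned 1.19-fold, the narrowest range of any tested member, and its 95% intervals on the log2 scale were -0.14 to 0.13 for strain and -0.14 to 0.15 for no strain. Cd55, encoding decay-accelerating factor, had 115, 135, 69.8, 71.5 and 141 CPM in TD, 104, 122, 55.5 and 199 CPM under strain, and 60.1, 62.0 and 75.0 CPM without strain. The strain libraries of Cd55 held both its highest and its lowest value, and no comparison passed.

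Of the soluble regulators, Cfi, encoding factor I, which cleaves C3b and C4b, rose from a very low level. It had 0.617, 0.822, 0.159, 0.404 and 1.27 CPM in TD, 0.894, 0.990, 1.60 and 1.63 CPM under strain, and 2.75, 1.76 and 2.32 CPM without strain. No-strain libraries lay above all others. The log2 fold change was 1.80 (SE 0.440) for no strain against TD (edgeR adjusted p = 0.0187) and 0.97 (SE 0.429) for strain against TD (edgeR adjusted p = 0.153). The call was lost without no-strain replicate 1 or 3 (adjusted p from 0.00942 to 0.0700 over the 12 fits that left out 1 library). The hepatocyte markers rose in the same order of groups, and with their mean as a covariate the value was 0.50 (edgeR adjusted p = 0.603, in a range from 0.00139 to 0.603 over 25 alternatives). Serping1, encoding C1 inhibitor, was second in level only to C1qb per kilobase of exon in each group by mean, at 256 ± 54.9 CPM per kilobase against 269.6 ± 89.3 (SD, n = 5) in TD, a gap within the spread. Its fold changes were 0.43 and 0.42, and Clu, encoding clusterin, an inhibitor of pore assembly, had -0.43 and -0.54. None of these passed.

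**Figure D3:**
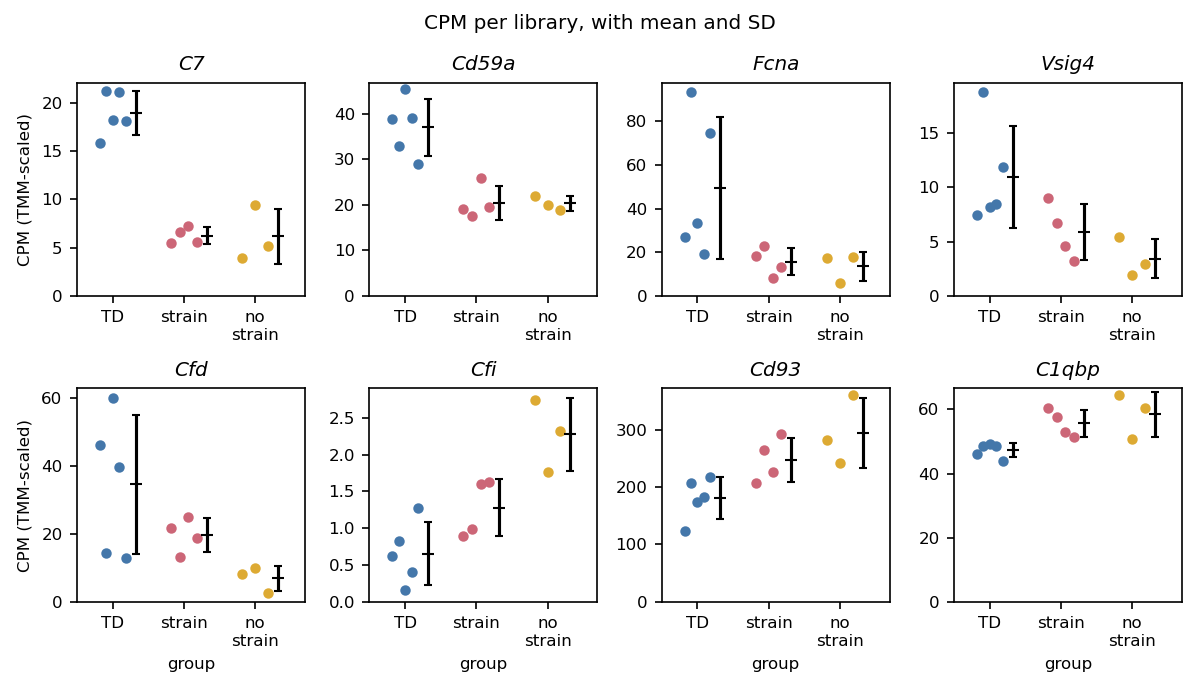
CPM per library (points) with the mean and SD of each group (bar at the right of each group) for the 8 complement genes called in at least 1 comparison with TD, each on its own linear axis from 0. C7 and Cd59a separate TD from both patch groups, while Cfd and Cfi separate the no-strain libraries from all others.

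Of the receptors and C1q-binding proteins, Vsig4, Cd93 and C1qbp passed for no strain against TD and none passed for strain against TD. C3ar1, the C3a receptor, had 60.8, 152, 119, 120.1 and 156 CPM in TD, 115, 221, 182 and 174 CPM under strain, and 205, 126 and 232 CPM without strain, with log2 fold changes of 0.51 (SE 0.276) and 0.63 (SE 0.298). C5ar1 and C5ar2, the receptors of C5a, had fold changes of -0.04 and -0.42 for strain and 0.42 and 0.08 for no strain. Vsig4, a C3b receptor of resident macrophages, had 7.40, 18.8, 8.13, 8.44 and 11.8 CPM in TD, 9.04, 6.66, 4.56 and 3.21 CPM under strain, and 5.40, 1.93 and 2.97 CPM without strain. The no-strain libraries lay below every TD library, and strain replicate 1 lay inside the TD range. Vsig4 was lower without strain than in TD (log2 fold change -1.67, SE 0.447, edgeR adjusted p = 0.0270), and its value under strain was -0.90 (SE 0.386, edgeR adjusted p = 0.146). The former call was lost without no-strain replicate 2 or 3 (adjusted p from 0.0242 to 0.0967) and without TD replicates 2 and 5 together (log2 fold change -1.22, edgeR adjusted p = 0.086). Over 25 alternatives it was lost in 8, among them no filter on low counts, the title letter as covariate and leaving out TD replicates 3 and 4.

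Fcna, Vsig4 and the C1q chains are all genes of macrophages, so macrophage markers were read beside them. The sum of 10 general macrophage markers ran from 2154 to 4840 CPM in TD, from 4203 to 7911 CPM under strain and from 5217 to 8144 CPM without strain. Lyz2 was its largest part, with 4709 of 7911 CPM in strain replicate 2. In the no-strain comparison 3 markers were higher (Fcgr1, Cd14 and Ctss) and 0 lower, 30.0% against 17.8% of all genes. Adgre1, Csf1r, Cd68, Mrc1, Mertk, Lyz2 and Marco did not pass. Log2 fold changes were above 0 for 9 markers, with 0.20 for Adgre1 and 0.19 for Csf1r, and -0.28 for Mrc1. For 6 resident-macrophage markers the sums were 511 to 830 CPM, 356 to 560 CPM and 374 to 478 CPM, with 0 higher and 2 lower (Lyve1 and Cd209f), 33.3%, while Folr2, Cd163, Timd4 and Gas6 did not pass. Of 10 neutrophil markers, 8 were higher under strain (80%, against 12.6% of all genes) and 6 without strain (60%, against 17.8%). Their sum ran from 446 to 1661 CPM in TD, from 882 to 8705 CPM under strain and from 2041 to 5170 CPM without strain. S100a8 and S100a9 made up most of it, with 3634 and 4761 of 8705 CPM in strain replicate 1. Neither passed for no strain against TD (edgeR adjusted p = 0.0573 and 0.052). Ly6g stayed at 0 to 1.86 CPM, so the sum follows mainly S100a8 and S100a9. All markers of the 3 lists had counts in every group. No test compared the lists with each other, and the part of macrophages or neutrophils in the values of Fcna, Vsig4, C1q, Cfp, C3ar1 or C5ar1 was not tested.

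Cd93, a surface protein of endothelium and myeloid cells once named as a C1q receptor, had 123, 208, 174, 182 and 218 CPM in TD, 207, 265, 227 and 293 CPM under strain, and 282, 241 and 360.5 CPM without strain. It rose without strain (log2 fold change 0.70, SE 0.185, edgeR adjusted p = 0.0252) and had 0.45 (SE 0.172, edgeR adjusted p = 0.103) under strain. Of 10 endothelial markers, 7 (70%) were also higher in each comparison with TD, against 6.2% of all genes under strain and 9.35% without strain. The sum of these 10 markers ran from 522 to 648 CPM in TD, from 678 to 937 CPM under strain and from 732 to 863 CPM without strain. Their part in the change of Cd93 was not tested. The call was lost without TD replicate 3 or 4 or without no-strain replicate 1 or 3 (adjusted p from 0.0243 to 0.117), and in 7 of 25 alternatives in all.

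C1qbp, a mitochondrial protein named for its binding of C1q, had 46.1, 48.5, 49.1, 48.5 and 43.9 CPM in TD, 60.5, 57.6, 53.0 and 51.4 CPM under strain, and 64.4, 50.7 and 60.3 CPM without strain. No patch library reached down to the TD range. The change was small, with a log2 fold change of 0.31 (SE 0.0820, edgeR adjusted p = 0.0258) for no strain and 0.24 (SE 0.0758, edgeR adjusted p = 0.0607) for strain, and with library totals in place of TMM factors the former was 0.24 (edgeR adjusted p = 0.0557). The call for no strain was also lost without no-strain replicate 1 or 3 (adjusted p from 0.0106 to 0.103 over the 12 fits), and in 7 of 25 alternatives in all.

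**Figure D4:**
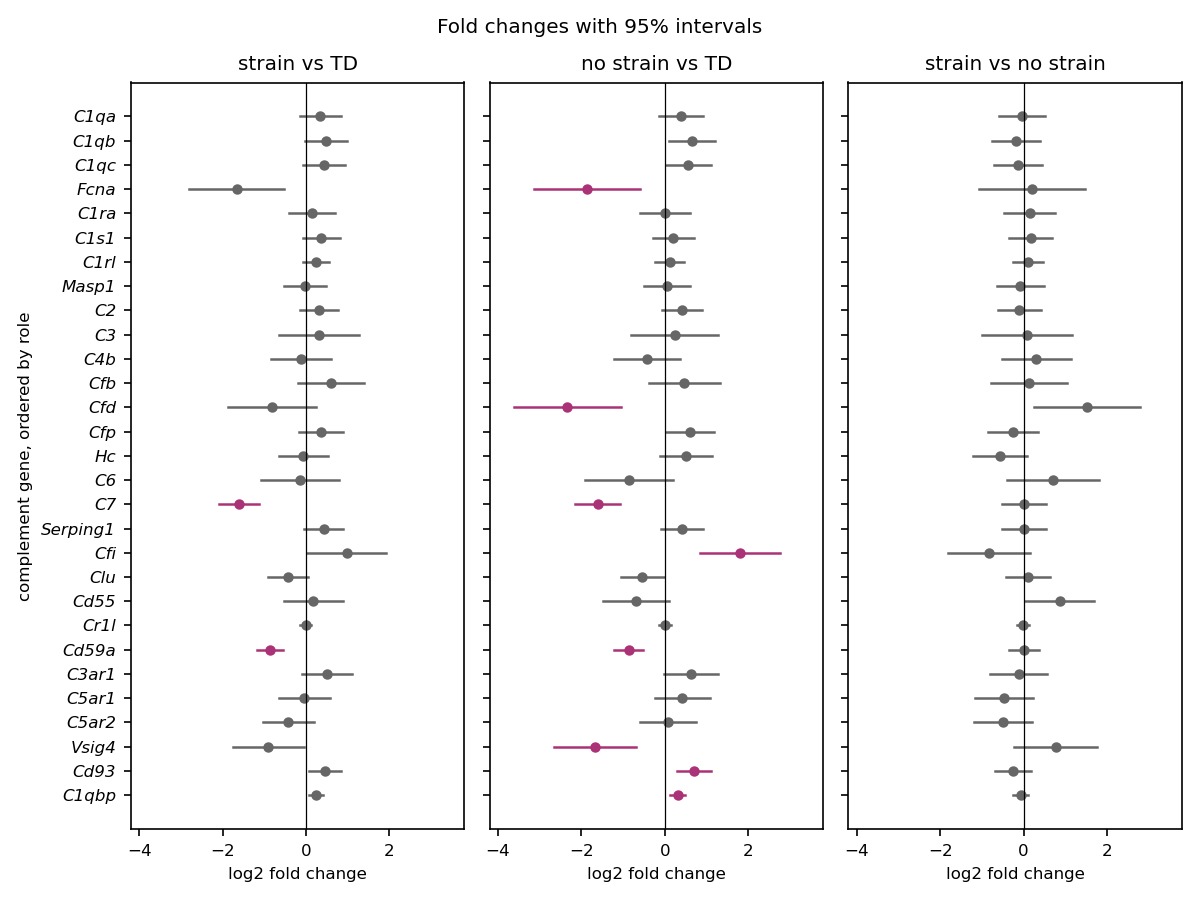
Log2 fold change (point) with its 95% interval (line) for 29 complement genes in 3 comparisons, coloured where the adjusted p is under 0.05 and grey otherwise. C7 and Cd59a are coloured in both comparisons with TD, 8 genes are coloured for no strain against TD, and none is coloured for strain against no strain.

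Between the patch groups, which differ in the imposed strain, 0 of 29 members passed in edgeR, as did 0.00% of all genes. At an unadjusted p under 0.05 there were 2 members, Cfd and Cd55, against 5.61% of all genes. DESeq2 called 0 members, beside 28 of all genes, 8 of them higher under strain. Cfd was 1.51 higher on the log2 scale under strain (SE 0.580, 95% interval 0.24 to 2.79, edgeR adjusted p = 0.872) and its libraries did not overlap between the groups. Cd55 differed by 0.87 (SE 0.378, edgeR adjusted p = 0.872), with strain replicate 3 below all no-strain libraries. Cfi libraries did not overlap either, at -0.82 (SE 0.448, edgeR adjusted p = 0.880). The 2 members without overlap made up 6.90%, near the 5.62% of all genes. For C7 the interval of the difference was -0.52 to 0.55 and for Cd59a -0.34 to 0.36, both on the log2 scale.

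A further 33 complement genes outside the list were read as a group, of which 29 were tested. For strain against TD, 0 were higher and 1 was lower, 3.45% against 12.6% of all genes. The lower gene was Cd59b, the near copy of Cd59a, at 1.08 ± 0.268 CPM (SD, n = 5) in TD, with strain 0.529 ± 0.113 CPM (SD, n = 4) and without it 0.533 ± 0.143 CPM (SD, n = 3). Reads of the pair may be split between them. For no strain against TD, 11 were higher and 1, again Cd59b, was lower, 41.4% against 17.8% of all genes. The median log2 fold change of these genes was 0.41 for strain and 0.24 for no strain. Between the patch groups 0 passed, and 7 of 29 (24.1%, against 5.62% of all genes) did not overlap, all of them lower under strain, as were all 8 hepatocyte markers. The 11 were C8a, C8b and C9 of the pore, C4bp, Cfhr2 and Vtn among regulators, Mbl1 and Mbl2 among lectins, the carboxypeptidase N genes Cpn1 and Cpn2, which inactivate fragments of C3 and C5, and the pentraxin Ptx3. C8b, a subunit of the pore, had 0.165, 0.164, 0, 0 and 0.132 CPM in TD, 0.248, 0.270, 0.389 and 0.479 CPM under strain, and 0.810, 0.815 and 0.836 CPM without strain.

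Several of these are made mainly in liver, and their summed level was ordered over the sets of libraries like the hepatocyte markers. Summed over C8a, C8b, C9, C4bp, Cfhr2, Mbl1 and Mbl2, a set chosen after their values were seen, the level was 0.717 and 0.444 CPM in TD replicates 3 and 4 and 1.73 to 1.81 CPM in the other TD libraries. It was 2.04, 1.94, 3.62 and 4.22 CPM in the strain libraries and 8.55, 7.04 and 6.88 CPM in the no-strain libraries. Alb, the hepatocyte marker of highest level, had 48.2, 39.6, 0.957, 0.848 and 45.4 CPM in TD, 40.9, 45.3, 95.2 and 113 CPM under strain, and 198, 189 and 173 CPM without strain. Where Alb was above 1 CPM, Apoa1 stood at 12.8 to 18.1 per 100 of Alb. Strain replicates 3 and 4 were above strain replicates 1 and 2 in the sum and in Alb, but not in each of the summed genes, since C9 had 0.596, 0.675, 0.623 and 0.767 CPM in strain replicates 1 to 4. The steps followed the numbers in the sample titles. The hepatocyte sum was 257 to 296 CPM in titles 11 to 13, all without strain, 140.7 and 166 CPM in titles 14 and 15, and 63.3 and 68.6 CPM in titles 7 and 10, these 4 with strain. In TD it was 1.59 and 1.37 CPM in titles 3 and 4 and 60.3 to 72.0 CPM in titles 1, 2 and 6. Whether the hepatocyte transcripts, or the reads of Cfi and of the complement genes made mainly in liver, came from cells of the wound was not tested, so these calls are not shown to be expression in skin.

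**Figure D5:**
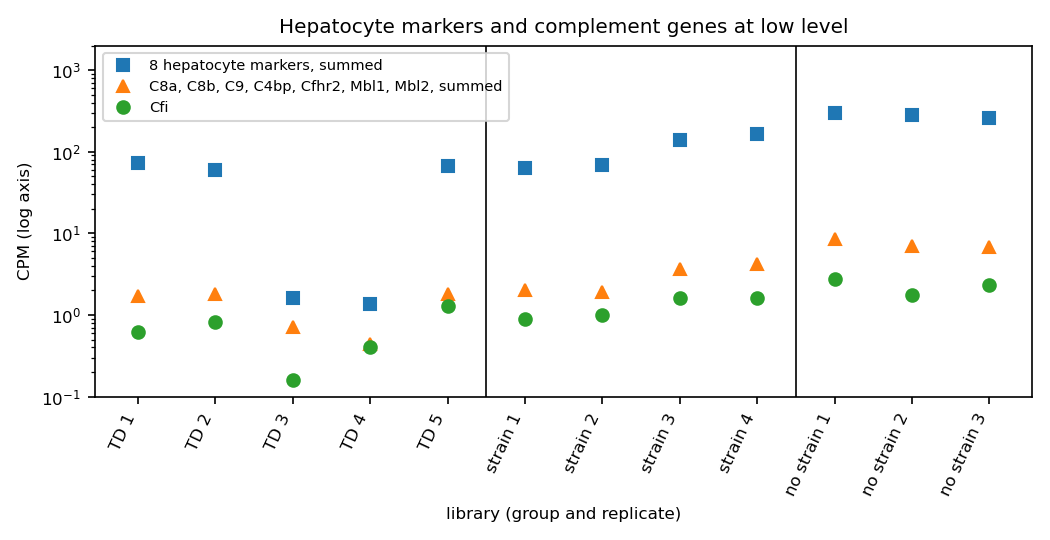
CPM per library on a log axis for the sum of 8 hepatocyte markers (squares), the sum of 7 complement genes made mainly in liver (triangles) and Cfi (circles). All are lowest in TD replicates 3 and 4 and highest in the no-strain libraries.

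Variation inside the TD group was shared by most members. In TD replicates 2 and 5, 21 of 29 members (72.4%) lay above the other 3 TD libraries, against 16.8% of all genes, a split noticed in the data. The exceptions below were Cfd, Cd59a and Masp1, and C2, C7, Serping1, Clu and C1qbp followed neither order. By counts over all genes, TD replicates 2 and 5 were also the most alike of the 19 replicate pairs. The general macrophage markers summed to 4722 and 4840 CPM in these libraries and to 2154 to 3685 CPM in the other TD libraries, and their part in the split was not tested. Without TD replicates 2 and 5, 7 members passed for strain against TD, with C1qa, C1qb, C1qc, Cfp and Cfi higher and C7 and Cd59a lower, beside 1357 genes in all. For no strain against TD, 9 members passed without those libraries, 6 higher and 3 lower, beside 2247 genes in all. These libraries were picked because most members were high in them, so leaving them out lowers the TD level of those members by construction, and the added higher calls restate the split. C7, which did not follow it, stood at -1.57 in both comparisons. Without TD replicates 3 and 4, which were nearly free of hepatocyte markers, 2 members passed for strain (C7 and Cd59a) beside 334 genes in all, and 4 for no strain (C7, Cd59a, Fcna and Cfi) beside 1384.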

How the data were processed

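Poly(A) RNA from 12 wounds taken on day 10 was sequenced, 1 library per wound. The deposited values are raw counts per Ensembl gene, per the file headers. Per the submitters' processing notes, the tools were bcl2fastq 2.17, FastQC, cutadapt, STAR, featureCounts and DESeq2, and the build was GRCm38. The annotation release, the strand setting and the rule for reads shared by genes are not given in the sources used here. Names, exon lengths and overlaps came from GENCODE on GRCm38, which named 54165 of 54232 genes.

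Genes were kept by filterByExpr (minimum count 10, minimum total 15) and tested in 1 edgeR 4.0.16 quasi-likelihood fit of all 12 libraries (R 4.3.3, TMM, robust spread), with Benjamini-Hochberg adjustment over 18618 genes. Standard errors came from the fold change and its F statistic. The fit was also run on simulated counts with planted changes and otherwise equal levels in all libraries. These held none of the muscle, hepatocyte or TD differences seen here, so that run does not bear on the reported calls. Counts of the 19 replicate pairs differed beyond sampling noise (chi-square over its degrees of freedom between 9.53 and 75.0), so no library was treated as a repeat of another. The lowest value was that of TD replicates 2 and 5, and TD replicates 1 and 4 came next at 24.6. Whether wounds shared an animal or a batch cannot be told from these values.

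Alternatives were DESeq2 1.42.0, its size factors, library totals, limma 3.58.1 (voom), other filters, fits of only the groups compared and no robust weights. Others took the letter in the sample title (L or R) or the muscle markers as covariates, or left out each library in turn. Added after the data were seen were fits with the hepatocyte markers as covariate and without TD replicates 3 and 4 or 2 and 5. All members with at least 15 counts were named. Members and marker lists were chosen with earlier results of these data known.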

Additional observations from a re-analysis of the deposited data

Results flagged for a closer look

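Each member was screened for a single library standing apart within TD (5 libraries) or within strain (4 libraries). Of 58 group values, 1 stood apart, where chance gives about 2.9. C1rl, the C1r-like protease, had 3.74 on the log2 CPM scale (13.2 CPM) in strain replicate 2, against 3.35 (10.1 CPM) in the next strain library. The same library had the highest level of 7 members among all 12 libraries, C3 and C1s1 among them. No-strain replicate 3 was highest for 9 of the 29 tested members and TD replicate 2 for 5.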

How the results depend on the processing

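For strain against no strain, 0 members passed under any of 25 alternatives. Over all genes, the 0 calls became 28 with DESeq2 and stayed at 0 in the others. For strain against TD the 2 reported members (C7 and Cd59a) became 4 with DESeq2 and 0 with the muscle covariate. They became 1 with the hepatocyte covariate and 7 without TD replicates 2 and 5. Over all genes 2349 calls became 3518, 1, 302 and 1357 in the same order. In the 12 fits that left out 1 library, 2 to 3 members and 882 to 2458 of all genes passed. For no strain against TD the 8 members became 5 without a filter on low counts and 1 with the muscle covariate. They became 0 with the hepatocyte covariate and 4 without TD replicates 3 and 4. Over all genes 3305 calls became 2381, 491, 211 and 1384 in the same order. When 1 library was left out, 2 to 8 members and 1505 to 3415 of all genes passed. Without no-strain replicate 1 these were 3 members and 1668 genes, and without no-strain replicate 3 they were 2 and 1505. For both patches the 8 members became 5 with the title letter as covariate and 0 with the muscle covariate. They became 2 with the hepatocyte covariate and 4 without TD replicates 3 and 4. Over all genes 4552 calls became 2589, 14, 665 and 1732 in the same order. When 1 library was left out, 7 to 10 members and 3176 to 4570 of all genes passed. In the remaining alternatives the counts of members stayed within 1.5 times the reported ones, and the cause of the changes was not tested. No called member reversed its direction. Muscle and hepatocyte levels differ between the groups, so these covariates and treatment cannot be fully told apart. No paired analysis was possible because no number in the sample titles occurs in more than 1 group. TD titles carry the numbers 1 to 6 and patch titles 7 to 15, so an order of processing and treatment cannot be told apart. Cfi had 4 to 29 counts per TD library, so depth limits its precision there.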
